A study of Mus musculus with 6 samples.

Results

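The 9 genes described here encode the 3 TGF-beta ligands (Tgfb1, Tgfb2 and Tgfb3), the 4 latent TGF-beta binding proteins or LTBPs (Ltbp1, Ltbp2, Ltbp3 and Ltbp4) and the 2 fibrillins (Fbn1 and Fbn2). They were chosen by gene symbol from the 32245 symbols of each count table, and all 9 passed the filter on low counts that left 14378 tested genes. The data are RNA-seq counts of polyadenylated RNA from primary cardiomyocytes, taken from wild type neonatal mouse hearts and cultured in 3 ways, with 2 libraries each: phosphate-buffered saline (PBS), BMP2, or BMP2 plus dorsomorphin (BMP2+DM). BMP2 is a secreted growth factor of the TGF-beta superfamily whose receptors are kinases that activate SMAD proteins. Dorsomorphin inhibits those BMP receptor kinases and also AMP-activated protein kinase. Every dorsomorphin library also received BMP2, so no group shows dorsomorphin alone. The sources used here give no dose, no duration and no number of hearts per culture. The labels do not say whether the 2 libraries of a group came from separate cultures. The p-values set each difference against a spread between libraries, drawn toward the trend over all genes, and that spread may be technical.

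TGF-beta ligands are secreted as an inactive complex in which the mature dimer stays bound to its own propeptide. LTBPs attach that latent complex to the extracellular matrix, and fibrillins form the microfibrils to which LTBPs bind. Integrins, thrombospondin and proteases can then release the active ligand, which signals through the TGF-beta receptors to SMAD2 and SMAD3. In the heart this pathway is known for its role in valve and septum formation and in fibrosis, and mutations of FBN1 cause Marfan syndrome.

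Each library held between 10106667 and 14366042 gene counts, and the 9 genes held 0.147% to 0.189% of them. PBS replicate 1 and BMP2 replicate 1 stood apart in ribosomal-repeat reads (models Gm42418 and AY036118), which took 1.31% and 2.10% of their gene counts and at most 0.0928% elsewhere. Cardiomyocyte markers were all detected, and their 7 genes summed to 24670 to 25070 CPM (counts scaled to a common library size) with PBS, 20941 to 21140 with BMP2 and 22747 to 22973 with BMP2+DM. The libraries also held RNA of other cells. The 9 fibroblast markers summed to 11074 to 11788, 11259 to 11298 and 8357 to 8618 CPM in the same order, and the 7 smooth muscle and pericyte markers to 2524 to 2532, 1492 to 1502 and 1585 to 1668 CPM. The 7 endothelial markers summed to 233 to 244, 213 to 221 and 149 to 157 CPM, the 7 epicardial and mesothelial markers to 175 to 184, 125 to 138 and 132 to 157 CPM, and the 6 leukocyte markers to 86.9 to 89.3, 65.1 to 68.1 and 59.9 to 63.3 CPM. No marker was at 0 in a whole group except the T cell marker Cd3e with BMP2 and with BMP2+DM. The sums are carried by abundant genes: with BMP2, 5 of the 9 fibroblast markers fell and 2 rose (Thy1 by −1.14 and Postn by 0.69 on the log2 scale), 6 of 7 cardiomyocyte markers fell, and 4 of 7 epicardial markers fell (list median −1.17). When dorsomorphin was added, 5 fibroblast markers fell and 2 rose, 3 cardiomyocyte markers rose, and 1 epicardial marker fell and 2 rose. Smooth muscle markers had 3 falls and 1 rise with BMP2 and 1 of each with dorsomorphin, endothelial markers 1 of each and then 3 falls, and leukocyte markers 1 fall in each. These calls used an edgeR adjusted p under 0.05. Over all tested genes 9.29% fell and 6.55% rose with BMP2, and 4.44% fell and 4.28% rose when dorsomorphin was added. In bulk RNA, fewer cells of a type and less RNA per cell cannot be told apart, and the part of these marker shifts in the changes of the 9 genes was not tested.

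With BMP2, 4 of the 9 genes fell (Ltbp2, Tgfb3, Fbn1 and Ltbp4) and 1 rose (Fbn2), at a Benjamini-Hochberg adjusted p under 0.05 in the quasi-likelihood test of edgeR. Over all tested genes 9.29% fell and 6.55% rose in that comparison. When dorsomorphin was added to BMP2, 2 fell (Ltbp2 and Ltbp1) and 3 rose (Tgfb3, Tgfb2 and Fbn1), against 4.44% and 4.28% of all tested genes. BMP2+DM against PBS gave 7 lower and 1 higher, against 11.5% and 9.38% of all tested genes. The median log2 fold change of the 9 genes was −0.30, 0.03 and −0.41 in the 3 comparisons, and that of all tested genes was 0.00, 0.00 and 0.01. The 2 groups compared did not overlap in CPM for 9, 7 and 9 of the 9 genes, where 55.9%, 50.3% and 58.5% of all tested genes did not overlap. The comparisons share libraries and are given side by side for that reason. With PBS replicate 1 and BMP2 replicate 1 both left out, BMP2 against PBS kept 3 falls (Ltbp2, Tgfb3 and Fbn1) and no rise, BMP2+DM against BMP2 kept both falls and 1 rise (Fbn1), and BMP2+DM against PBS kept 4 falls (Ltbp2, Ltbp1, Ltbp3 and Fbn1) and no rise. That fit leaves 1 PBS and 1 BMP2 library, and its counts over all genes are given in the closing section. Its log2 fold changes with BMP2 were −1.69 for Ltbp2, −0.86 for Tgfb3, −0.48 for Fbn1, −0.35 for Ltbp4 and 0.13 for Fbn2.

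**Figure D1:**
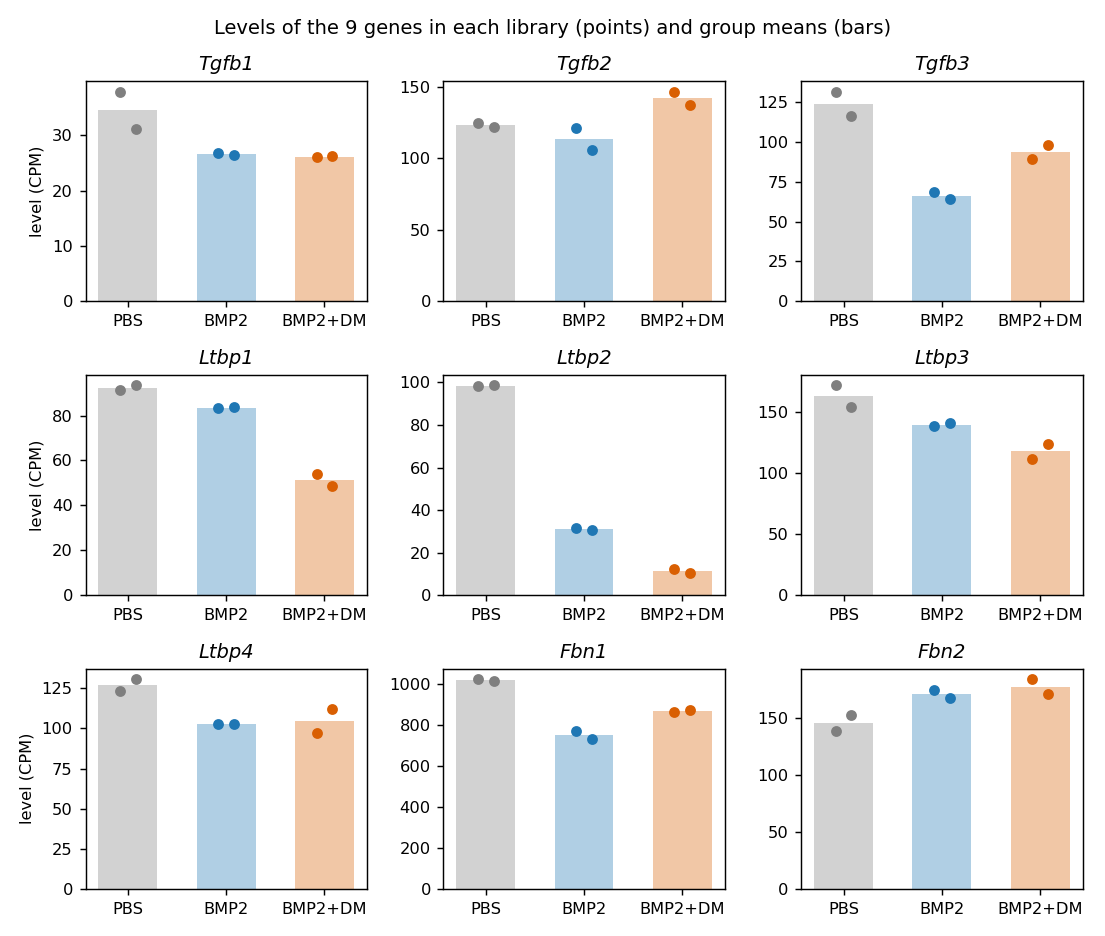
Level of each of the 9 genes in CPM (linear axis from 0) in the PBS, BMP2 and BMP2+DM libraries; points are single libraries and bars the mean of 2. Ltbp2 steps down from 98.5 to 31.2 and 11.4 CPM, Tgfb3 and Fbn1 dip with BMP2 and come part of the way back, and Fbn2 is highest in the 2 groups given BMP2.

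Of the ligands, 1 fell with BMP2 and 2 rose when dorsomorphin was added. Tgfb3, a ligand known for its role in palate fusion and in heart development, fell with BMP2 and came part of the way back with dorsomorphin. Its level was 131 and 116 CPM with PBS, 68.4 and 63.9 CPM with BMP2, and 89.0 and 97.7 CPM with BMP2+DM. All 4 libraries given BMP2 lay below both PBS libraries, and the BMP2+DM pair lay above the BMP2 pair. The log2 fold change of Tgfb3 was −0.90 ± 0.09 (standard error) for BMP2 against PBS (edgeR adjusted p = 1.37e-06) and 0.50 ± 0.09 for BMP2+DM against BMP2 (edgeR adjusted p = 0.00195). Its level with both agents stayed below PBS by a log2 fold change of −0.41 ± 0.09 (edgeR adjusted p = 0.00286). Without PBS replicate 1 that remaining difference was −0.31 and lost its call (edgeR adjusted p = 0.0701), and it was called in 11 of 14 alternatives (adjusted p 4.72e-05 to 1). The rise with dorsomorphin was called in 12 of 14 alternatives, and was 0.55 with an adjusted p of 0.0545 when PBS replicate 1 and BMP2 replicate 1 were both left out (adjusted p 2.68e-06 to 1 over the alternatives).

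Tgfb2, the ligand needed for cushion and outflow tract development, did not pass the test with BMP2. Its level was 125 and 122 CPM with PBS, 121 and 106 CPM with BMP2, and 147 and 138 CPM with BMP2+DM. The BMP2+DM libraries were the highest pair and overlapped neither other group. The log2 fold change of Tgfb2 was −0.12 ± 0.08 with BMP2 (edgeR adjusted p = 0.355), 0.33 ± 0.08 when dorsomorphin was added (edgeR adjusted p = 0.0138) and 0.21 ± 0.08 for BMP2+DM against PBS (edgeR adjusted p = 0.0726). The rise with dorsomorphin rested on BMP2 replicate 2 and BMP2+DM replicate 1: it was 0.23 without the former (adjusted p = 0.188) and 0.28 without the latter (adjusted p = 0.0971), with calls in 10 of 14 alternatives (edgeR or DESeq2 adjusted p 0.000783 to 1).

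Tgfb1, the ligand best known from fibrosis and immune regulation, was the lowest of the ligands per kilobase in every group. Its level was 37.95 and 31.3 CPM with PBS, 26.8 and 26.5 CPM with BMP2, and 26.04 and 26.2 CPM with BMP2+DM. The PBS pair was the higher and the more spread, on 531 and 359 counts. Its log2 fold change was −0.38 ± 0.14 with BMP2 (edgeR adjusted p = 0.0703), −0.03 ± 0.14 when dorsomorphin was added (edgeR adjusted p = 0.934) and −0.41 ± 0.14 for BMP2+DM against PBS (edgeR adjusted p = 0.0427). That last call was lost without each of 5 libraries in turn, to −0.26 (adjusted p = 0.354) without PBS replicate 1 and to an adjusted p of 0.0521 and 0.0525 without BMP2 replicate 1 and 2 and 0.124 and 0.125 without BMP2+DM replicate 1 and 2. It held in 6 of 14 alternatives (adjusted p 0.0375 to 1).

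The LTBPs were the group in which no member rose in any comparison. Ltbp2 had the greatest change of the 9 genes in each comparison. Unlike the other LTBPs, the protein encoded by Ltbp2 is not known to bind latent TGF-beta, and it associates with fibrillin microfibrils. Its level was 98.3 and 98.6 CPM with PBS, 31.7 and 30.6 CPM with BMP2, and 12.3 and 10.6 CPM with BMP2+DM. In raw counts these were 1376 and 1133, 349 and 321, and 127 and 109. Each group lay wholly below the one before it, so dorsomorphin moved Ltbp2 further from PBS and not back. Ltbp2 was 3.16-fold lower with BMP2 than with PBS (log2 −1.66 ± 0.11, edgeR adjusted p = 6.89e-09), 2.72-fold lower again with BMP2+DM (−1.45 ± 0.13, edgeR adjusted p = 1.34e-06) and 8.60-fold lower in all (−3.10 ± 0.13, edgeR adjusted p = 6.93e-12). These calls held in all 14 alternatives of each comparison, a test against a minimum fold of 1.5 among them.

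Ltbp1, which encodes the LTBP first isolated with latent TGF-beta, showed its change when dorsomorphin was added. Its level was 91.5 and 93.5 CPM with PBS, 83.4 and 83.7 CPM with BMP2, and 53.9 and 48.6 CPM with BMP2+DM. The BMP2+DM pair lay far below the other 4 libraries, which spanned 83.4 to 93.5 CPM. The log2 fold change of Ltbp1 was −0.15 ± 0.09 with BMP2 (edgeR adjusted p = 0.307), −0.70 ± 0.09 when dorsomorphin was added (edgeR adjusted p = 7.94e-05) and −0.85 ± 0.09 for BMP2+DM against PBS (edgeR adjusted p = 2.18e-06). The fall with dorsomorphin was called in 13 of 14 alternatives, the exception being the test against a minimum fold of 1.5.

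Ltbp3 and Ltbp4 changed less. Ltbp3, which is known for its part in bone and tooth development, had 172 and 154 CPM with PBS, 138 and 140.4 CPM with BMP2, and 111 and 124 CPM with BMP2+DM. These were descending and non-overlapping pairs, but neither step alone passed the test: the log2 fold change was −0.22 ± 0.08 with BMP2 (edgeR adjusted p = 0.0566) and −0.25 ± 0.08 when dorsomorphin was added (edgeR adjusted p = 0.0628). Over both it fell, by a log2 fold change of −0.47 ± 0.08 (edgeR adjusted p = 0.000235). The BMP2 step was called without BMP2+DM replicate 1 (−0.22, adjusted p = 0.0348) and without BMP2+DM replicate 2 (−0.22, adjusted p = 0.0370), and in 4 of 14 alternatives (adjusted p 0.0217 to 1). The dorsomorphin step was called without BMP2+DM replicate 2 (−0.32, adjusted p = 0.0425) and in 2 of 14 alternatives (adjusted p 0.0191 to 1).

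Ltbp4, whose protein is known to take part in elastic fibre assembly, had 123 and 131 CPM with PBS, 103 and 103 CPM with BMP2, and 97.3 and 112 CPM with BMP2+DM. The BMP2 values fell between the 2 BMP2+DM values, and both groups lay below PBS. Its log2 fold change was −0.30 ± 0.08 with BMP2 (edgeR adjusted p = 0.0163), 0.03 ± 0.08 when dorsomorphin was added (edgeR adjusted p = 0.894) and −0.28 ± 0.08 for BMP2+DM against PBS (edgeR adjusted p = 0.0230). The fall with BMP2 was −0.26 without PBS replicate 2 (adjusted p = 0.146), −0.30 without BMP2 replicate 1 (adjusted p = 0.0854) and −0.31 without BMP2 replicate 2 (adjusted p = 0.0849), and was called in 9 of 14 alternatives (adjusted p 0.00248 to 1). BMP2+DM against PBS lost its call without PBS replicate 1 (−0.32, adjusted p = 0.0522), PBS replicate 2 (−0.23, adjusted p = 0.170) and BMP2+DM replicate 1 (−0.18, adjusted p = 0.224), and was also called in 9 of 14 alternatives (adjusted p 0.00626 to 1).

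The stretches just upstream of the starts of Ltbp2 and Ltbp1 are shown because these 2 LTBPs fell when a BMP receptor inhibitor was added, and because Ltbp1 has 2 annotated starts that gene-level counts cannot tell apart. The sequences are RefSeq's on GRCm38.p6, written 5′ to 3′ on the gene's strand up to the start, with bases that GENCODE counts as exon left out. Capitals mark CAGAC or its reverse complement GTCTG, the short box that SMAD proteins are known to bind. The Ltbp2 stretch is chr12:84876533-84876741 on the minus strand. Those of Ltbp1 are chr17:75005279-75005528 for the upstream start and chr17:75178531-75178780 for the downstream start, both on the plus strand.
Ltbp2: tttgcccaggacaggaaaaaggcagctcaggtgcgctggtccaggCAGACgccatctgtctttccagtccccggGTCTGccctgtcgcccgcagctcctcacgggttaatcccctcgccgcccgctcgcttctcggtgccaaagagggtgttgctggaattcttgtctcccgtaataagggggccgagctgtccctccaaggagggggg
Ltbp1 upstream start: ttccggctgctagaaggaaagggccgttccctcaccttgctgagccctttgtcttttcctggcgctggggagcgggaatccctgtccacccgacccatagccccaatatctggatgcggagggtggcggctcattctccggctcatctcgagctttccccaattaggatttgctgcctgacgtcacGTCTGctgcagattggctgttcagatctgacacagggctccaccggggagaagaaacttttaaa
Ltbp1 downstream start: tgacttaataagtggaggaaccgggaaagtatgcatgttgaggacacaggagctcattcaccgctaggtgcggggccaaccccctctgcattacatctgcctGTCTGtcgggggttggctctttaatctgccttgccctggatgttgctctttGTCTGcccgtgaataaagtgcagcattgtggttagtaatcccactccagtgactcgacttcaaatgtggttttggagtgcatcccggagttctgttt

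Over the 250 bases before the start, the box CAGAC (either strand) occurred 2 times for Ltbp2, 1 time and 2 times for the upstream and downstream starts of Ltbp1, 2 times for Tgfb2 and 1 time for Ltbp3. It was not found in these windows of Tgfb1, Ltbp4 or Fbn1. Of 32851 such windows of all genes, 42.2% held it. The palindrome GGCGCC, a GC-rich element that BMP-activated SMADs are known to bind, occurred in 2 overlapping windows of Ltbp4 and in 9.59% of all windows. No match of either motif overlapped a match of the other. Of the 9 genes, 7 were matched in the RefSeq table; the other two are Tgfb3 and Fbn2. Genes with the box moved in both directions with dorsomorphin: Ltbp2 and Ltbp1 fell and Tgfb2 rose. A match describes the letters only.

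The fibrillins moved in opposite directions with BMP2. Fbn1, the main microfibril protein gene, was the most abundant of the 9 per kilobase. Its level was 1022 and 1012 CPM with PBS, 768 and 728 CPM with BMP2, and 861 and 869.7 CPM with BMP2+DM. The 3 pairs did not overlap, with BMP2 lowest and BMP2+DM between. Its log2 fold change was −0.44 ± 0.05 with BMP2 (edgeR adjusted p = 7.18e-06), 0.21 ± 0.05 when dorsomorphin was added (edgeR adjusted p = 0.0149) and −0.23 ± 0.05 for BMP2+DM against PBS (edgeR adjusted p = 0.00321). The partial return with dorsomorphin lost its call without BMP2 replicate 2 (0.17, adjusted p = 0.139), BMP2+DM replicate 1 (0.22, adjusted p = 0.0574) or BMP2+DM replicate 2 (0.20, adjusted p = 0.0794), and was called in 10 of 14 alternatives (adjusted p 0.000291 to 1).

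Fbn2, the fibrillin gene known for high expression in embryonic and fetal tissue, had 139 and 153 CPM with PBS, 175 and 168 CPM with BMP2, and 185 and 171 CPM with BMP2+DM. All 4 libraries given BMP2 lay above both PBS libraries, and BMP2 and BMP2+DM overlapped. Its log2 fold change was 0.23 ± 0.07 with BMP2 (edgeR adjusted p = 0.0313), 0.05 ± 0.07 when dorsomorphin was added (edgeR adjusted p = 0.717) and 0.29 ± 0.07 for BMP2+DM against PBS (edgeR adjusted p = 0.00677). The rise with BMP2 was 0.16 without PBS replicate 1 (adjusted p = 0.263), 0.20 without BMP2 replicate 1 (adjusted p = 0.178) and 0.26 without BMP2 replicate 2 (adjusted p = 0.0849). It was called in 8 of 14 alternatives (adjusted p 0.0104 to 1), and DESeq2 gave 0.23 with an adjusted p of 0.0547. BMP2+DM against PBS lost its call without PBS replicate 1 (0.22, adjusted p = 0.101) and BMP2+DM replicate 1 (0.23, adjusted p = 0.0751), with calls in 10 of 14 alternatives (adjusted p 0.000529 to 1).

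**Figure D2:**
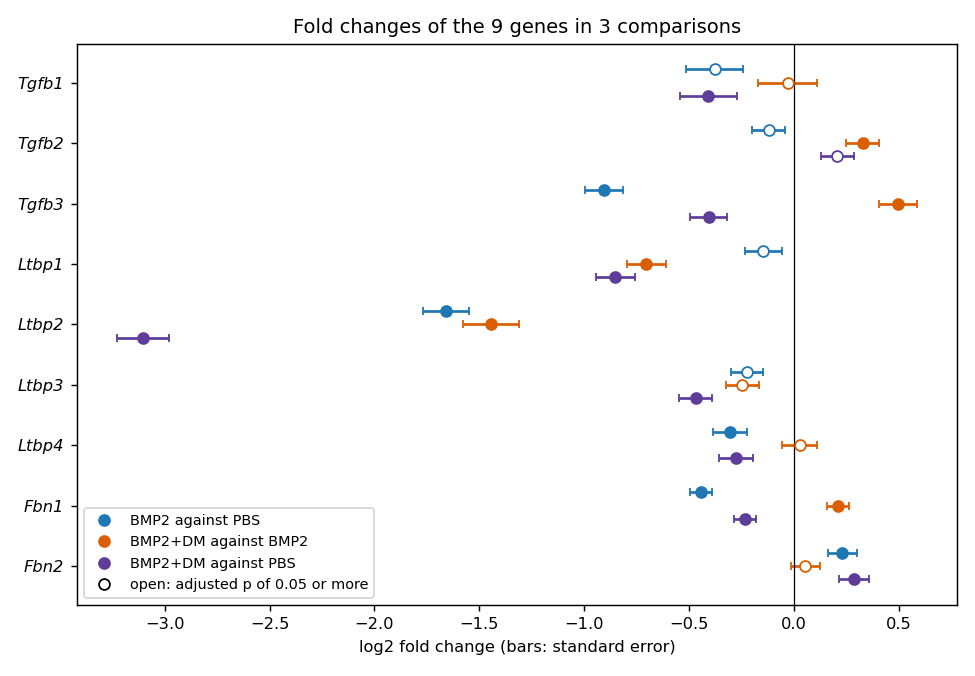
Log2 fold change (horizontal axis) of the 9 genes in BMP2 against PBS, BMP2+DM against BMP2 and BMP2+DM against PBS, with standard errors; filled points have an edgeR adjusted p under 0.05. Ltbp2 lies far left in all 3 comparisons (−1.66, −1.45 and −3.10), while the points of Tgfb3 and Fbn1 lie left of 0 for BMP2 and right of 0 when dorsomorphin was added.

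Levels can be set side by side between genes once divided by length. In CPM per kilobase of merged exons (RPKM), the order with PBS was Fbn1 (83.8), Tgfb3 (36.5), Tgfb2 (21.3), Ltbp4 (19.6), Ltbp3 (17.9), Ltbp2 (12.0), Fbn2 (11.0), Ltbp1 (8.65) and Tgfb1 (6.86), and no neighbours in that order overlapped between libraries. With BMP2, Ltbp2 dropped to the last place (3.81 RPKM) and Tgfb2 and Tgfb3 overlapped, at 19.6 ± 1.86 and 19.5 ± 0.943 RPKM (SD, n = 2). With BMP2+DM, Fbn2 (13.5 RPKM) and Ltbp3 (13.0 RPKM) overlapped, and Ltbp2 stayed last at 1.40 RPKM. The order depends on which length is used: with the longest transcript of each gene, Tgfb2 and Ltbp4, Ltbp1 and Tgfb1, and Tgfb1 and Fbn2 overlapped with PBS.

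Summed over the 3 ligands, the level was 67.9 and 61.4 RPKM with PBS, 46.4 and 42.4 RPKM with BMP2, and 56.8 and 57.8 RPKM with BMP2+DM. The ligand sum was thus lowest with BMP2. Summed over the 4 LTBPs it was 58.5 and 58.0 RPKM, 42.8 and 43.0 RPKM, and 33.9 and 36.9 RPKM in the same order, so the LTBP sum was lowest with BMP2+DM. The ratio of the LTBP sum to the ligand sum was 0.862 and 0.944 with PBS, 0.923 and 1.01 with BMP2, and 0.596 and 0.637 with BMP2+DM. The PBS and BMP2 ratios overlapped, and both BMP2+DM ratios lay below them. These ratios count Ltbp2 among the LTBPs, although its protein is not known to bind latent TGF-beta. Ltbp2 was 20.7%, 8.89% and 3.97% of the LTBP sum with PBS, BMP2 and BMP2+DM. Leaving it out would change the groups unequally, and the ratio without it is not given here. These sums and ratios are a description and were not tested; an exact permutation test of 2 against 2 libraries cannot give a two-sided p below 0.333. With the longest transcript as length the mean ratios were 1.09, 1.17 and 0.753, in the same order.

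**Figure D3:**
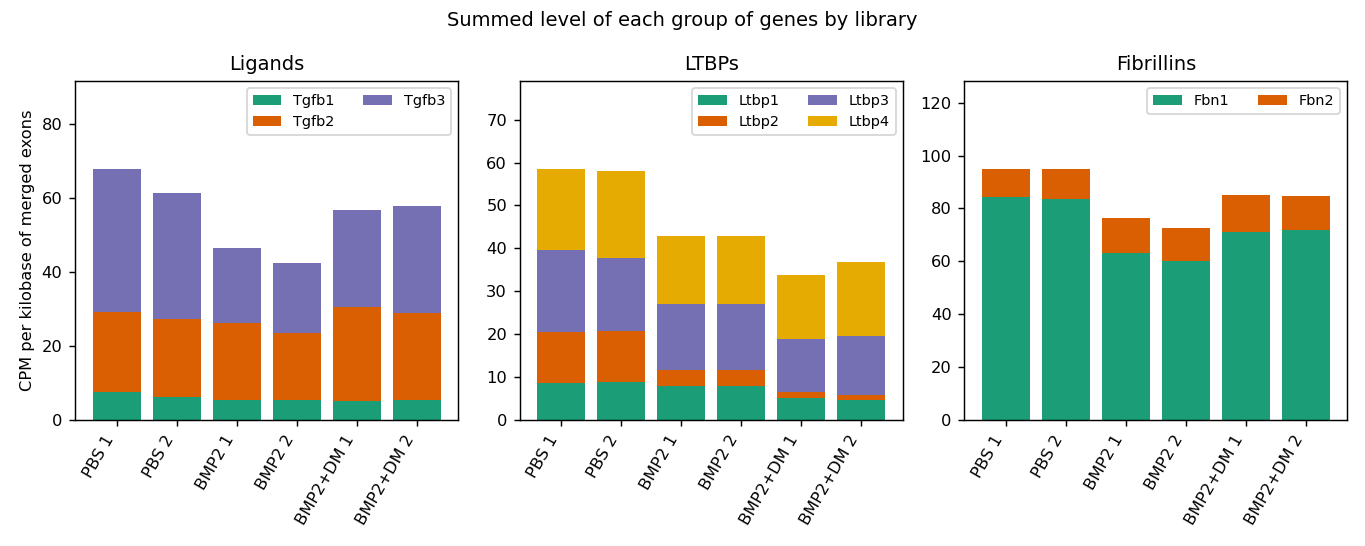
Stacked level of the ligands, LTBPs and fibrillins in each library, in CPM per kilobase of merged exons (linear axis from 0). The ligand stack is shortest in the BMP2 libraries, and the LTBP stack in the BMP2+DM libraries, where the Ltbp2 band averages 1.40.

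The makeup of each sum also shifted. Tgfb3 made up 56.5% ± 1.04 of the ligand sum with PBS, 44.1% ± 0.700 with BMP2 and 48.1% ± 2.55 with BMP2+DM (SD, n = 2). Tgfb2 made up 32.9% ± 1.74, 44.0% ± 1.38 and 42.8% ± 2.48, and Tgfb1 the remaining 10.6%, 11.9% and 9.05%. Ltbp2 made up 20.7% ± 0.194 of the LTBP sum with PBS, 8.89% ± 0.238 with BMP2 and 3.97% ± 0.653 with BMP2+DM, while the share of Ltbp4 was 33.7%, 37.1% and 45.8%. Fbn2 made up 11.6% ± 0.761 of the fibrillin sum with PBS, 17.4% ± 0.142 with BMP2 and 15.9% ± 0.807 with BMP2+DM, so its share was lowest with PBS.

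The genes whose log2 CPM over the 6 libraries lay closest to those of a member, each centred on its own mean, were sought among 11053 genes for the 3 members with the smallest p in BMP2 against PBS. For Ltbp2 they were Cnn1 (root mean square distance 0.27), Ace (0.31) and Meox1 (0.31). Cnn1, the smooth muscle calponin gene, is also on the smooth muscle marker list and stood at 23.0, 8.38 and 4.07 CPM with PBS, BMP2 and BMP2+DM. Ace, the angiotensin-converting enzyme gene, stood at 22.2, 8.76 and 3.93 CPM. For Tgfb3 the closest were Ccpg1 (0.04), Casp12 (0.05) and Carns1 (0.08), and for Fbn1 they were Daam1 (0.02), Gask1b (0.03) and Litaf (0.03). Ccpg1 stood at 53.2, 29.98 and 42.7 CPM, and Daam1 at 198, 148 and 166 CPM. The 6 libraries fall into 3 groups, so a close profile rests on few degrees of freedom and is a description only.

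By position, 4 of the 9 genes form 2 pairs on the mm10 genome. Ltbp2 (chromosome 12, 84783212 to 84876532, minus strand) and Tgfb3 (chromosome 12, 86056745 to 86079041, minus strand) lie 1180 kb apart. Of the 21 tested genes between them, 1 fell and 2 rose with BMP2, and 1 fell and 1 rose when dorsomorphin was added. Over all tested genes 9.29% fell and 6.55% rose with BMP2, and 4.44% fell and 4.28% rose when dorsomorphin was added. Tgfb1 (chromosome 7, 25687002 to 25705077, plus strand) and Ltbp4 (chromosome 7, 27305136 to 27337692, minus strand) lie 1600 kb apart, and of 13 tested genes between them 1 changed with BMP2, and it fell. Of the other members, Tgfb2 lies on chromosome 1 (186622792 to 186705989, minus strand), Ltbp1 on chromosome 17 (75005568 to 75392512, plus strand), Ltbp3 on chromosome 19 (5740904 to 5758532, plus strand) and Fbn1 on chromosome 2 (125300594 to 125507993, minus strand).

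Some exon bases are shared with gene models on the opposite strand, and since the strand setting of the counting is not given, reads there cannot be told apart. The antisense model D030025P21Rik covers 9.34% of the Ltbp2 exon bases and had 91 and 119 counts with PBS, 21 and 37 with BMP2, and 11 and 8 with BMP2+DM, the same order of groups as Ltbp2. The model Gm9913 covers 20.1% of the Fbn1 exon bases and had 465 and 402, 318 and 282, and 302 and 302 counts. Gm48008 covers 7.6% of the Tgfb3 exon bases and had 251 and 219, 87 and 98, and 121 and 134 counts, again in the order of its partner. Other overlaps of the 9 genes, Gm37804 with Tgfb3 (4.82%) apart, covered at most 2.14% of a gene's exon bases. The counts of these 3 models were below those of its partner in every library.

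Other genes of the pathway were read from the same fit, as lists. Beside their counts, 9.29% of all tested genes fell and 6.55% rose with BMP2, and 4.44% fell and 4.28% rose when dorsomorphin was added. Of 5 TGF-beta receptor and co-receptor genes, 1 fell with BMP2, the type I receptor gene Acvrl1 (log2 −0.40 ± 0.12, edgeR adjusted p = 0.0266). When dorsomorphin was added Acvrl1 rose (0.42 ± 0.12), as did the type II receptor gene Tgfbr2 (0.39 ± 0.11), and the co-receptor gene Eng fell (−0.42 ± 0.07). The median log2 fold change of these 5 genes was −0.12 with BMP2 and 0.20 with dorsomorphin. Without PBS replicate 1 and BMP2 replicate 1, 0 of the 5 were called by edgeR in either comparison, with 0 and 3 at an unadjusted p under 0.05. The call of Acvrl1 with BMP2 was also lost under DESeq2 (1 at an unadjusted p under 0.05) and without any 1 of PBS replicate 1, PBS replicate 2, BMP2 replicate 1 or BMP2 replicate 2. Against the 3 receptor calls with dorsomorphin, there was 1 under DESeq2 and without BMP2 replicate 1, BMP2 replicate 2 or BMP2+DM replicate 2, and there were 2 without BMP2+DM replicate 1.

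Of 19 tested genes for processing and activation of the latent complex, 9 fell and 1 rose with BMP2 (median −0.27), and 8 fell and 1 rose when dorsomorphin was added (median −0.19). Integrins that contain the alpha-v chain bind the latent complex: Itgav, the gene of that chain, changed with BMP2 by −0.67 ± 0.09 and Itgb5 by −0.51 ± 0.06. Thbs1, which encodes an activator of latent TGF-beta, fell in both steps, by −0.29 ± 0.04 and −0.72 ± 0.04. Lrrc32, which encodes the membrane anchor GARP of latent TGF-beta, had 323 and 339 CPM with PBS, 249 and 269.6 CPM with BMP2, and 164 and 179 CPM with BMP2+DM. Furin, the gene of the protease that cuts the TGF-beta precursor, changed by −0.49 ± 0.07 when dorsomorphin was added. Without PBS replicate 1 and BMP2 replicate 1, 6 of the 19 were called in each of these comparisons.

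Of 22 microfibril and elastic fibre genes, 11 fell and 2 rose with BMP2 (median −0.34), and 6 fell and 6 rose when dorsomorphin was added (median −0.08). Eln, the elastin gene, was low in the BMP2 libraries alone: 304 and 291 CPM with PBS, 184 and 162 CPM with BMP2, and 303 and 317 CPM with BMP2+DM, where it overlapped PBS. Fbln2, the gene of the fibrillin-binding protein fibulin-2, stepped down in both comparisons, as Ltbp2 did, from 1511 and 1536 to 841 and 885 and then 499 and 522 CPM. Adamtsl2, whose protein binds LTBP1 and fibrillin, did so too, from 73.0 and 72.2 to 33.9 and 37.8 and then 14.7 and 17.3 CPM. The cross-linking enzyme genes Loxl2 and Loxl1 changed with BMP2 by −0.56 ± 0.05 and −0.58 ± 0.06. Without PBS replicate 1 and BMP2 replicate 1, 8 of the 22 were called in each comparison.

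**Figure D4:**
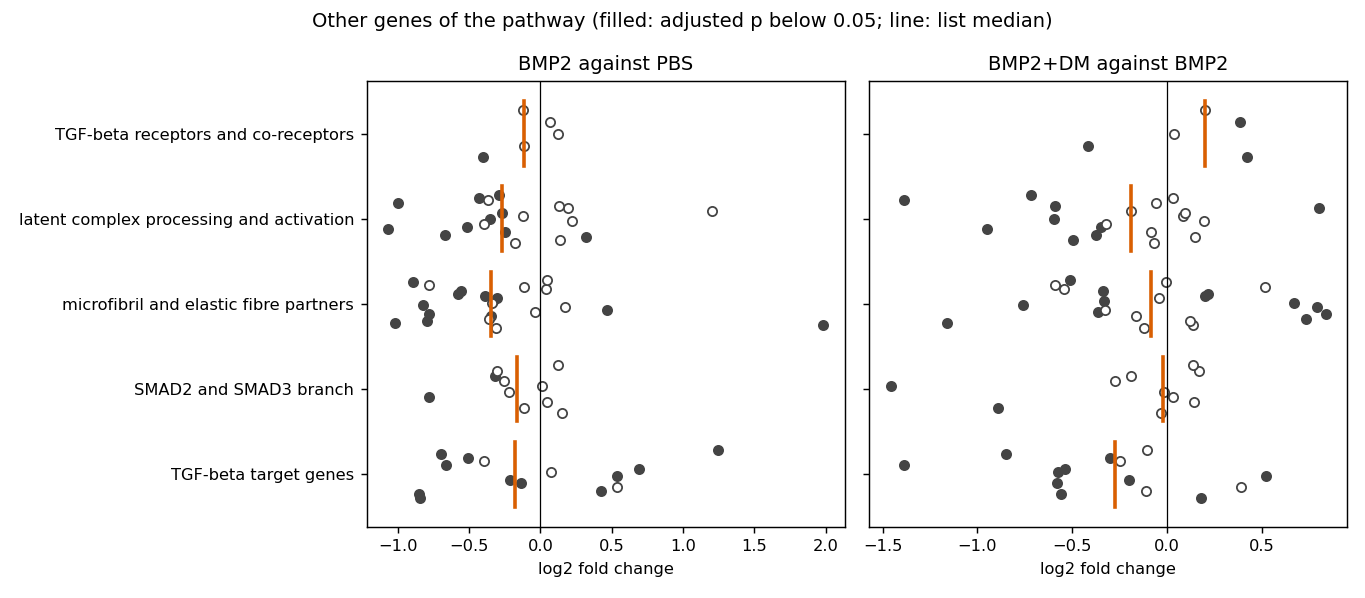
Log2 fold change (horizontal axis) of the other pathway genes by list, for BMP2 against PBS (left) and BMP2+DM against BMP2 (right); each point is a gene, filled where the edgeR adjusted p is under 0.05, and the line is the list median. The microfibril and elastic fibre genes have 11 falls and 2 rises on the left and 6 of each on the right.

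Of 10 genes of the SMAD2 and SMAD3 branch, 2 fell and 8 did not pass with BMP2 (median −0.17), and 2 fell and 8 did not pass when dorsomorphin was added (median −0.02). Smad3, a signal transducer of TGF-beta receptors, had 70.2 and 77.4 CPM with PBS, 45.4 and 40.3 CPM with BMP2, and 43.1 and 44.7 CPM with BMP2+DM. Smad7, the inhibitory SMAD gene induced by TGF-beta and BMP alike, and Skil, a SMAD corepressor gene, changed by −1.46 ± 0.10 and −0.89 ± 0.11 when dorsomorphin was added. Smad7 was not called with BMP2 alone (0.01 ± 0.09, edgeR adjusted p = 0.942), at 96.6 and 108 CPM with PBS, 104 and 103 CPM with BMP2, and 39.5 and 35.7 CPM with BMP2+DM. Without PBS replicate 1 and BMP2 replicate 1, 1 and 2 of the 10 were called in these comparisons, and with BMP2 also 1 without PBS replicate 2 or BMP2 replicate 2.

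Of 14 known TGF-beta target genes, 7 fell and 4 rose with BMP2 (median −0.18), and 8 fell and 2 rose when dorsomorphin was added (median −0.27). Ccn2, the connective tissue growth factor gene, changed by −0.85 ± 0.05 and −0.56 ± 0.05 in the 2 steps. Timp3, a metalloproteinase inhibitor gene, went the other way with BMP2, from 384 and 398 to 921 and 936 CPM. Col1a1, Col1a2 and Postn of this list are also on the fibroblast marker list, and Acta2 on the smooth muscle list, where it fell with BMP2 by 0.84 ± 0.05 on the log2 scale. Without PBS replicate 1 and BMP2 replicate 1, 10 and 6 of the 14 were called. Against a minimum fold of 1.5, the receptor, latent complex, microfibril, SMAD and target lists had 0, 0, 3, 0 and 3 calls with BMP2 and 0, 1, 2, 1 and 1 when dorsomorphin was added. At an unadjusted edgeR p under 0.05 that test gave 0, 2, 6, 1 and 5 genes with BMP2 and 0, 4, 4, 2 and 2 with dorsomorphin. The share of all tested genes at an unadjusted p is not given here for any such count. Beside these lists the median of all tested genes was 0.00 in both comparisons, and each list was chosen with earlier results of these data known.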

How the data were processed

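The values are raw counts per gene, as the authors deposited them for each library. The submitters' processing notes name FastQC, Trimmomatic, STAR, HTSeq, DESeq2 and the mm10 build. Tool versions, annotation and strand setting: not given in the sources used here. Summary lines that name no gene held 53.8% to 54.2% of each file and were left out. Most of this was reads in no annotated feature (49.7% to 50.1% of each file), and 0.133% to 0.138% were ambiguous between genes. The cause of the no-feature share, the strand setting included, was not tested. The filterByExpr function (minimum count 10, minimum total 15) left 14378 genes. All 6 libraries were fitted with group means by the quasi-likelihood test of edgeR 4.0.16 (R 4.3.3, TMM factors, 3 residual degrees of freedom), with Benjamini-Hochberg adjustment over all tested genes and a threshold of 0.05. That test draws each gene's spread toward the trend over all genes. Standard errors and small p-values therefore do not rest on a gene's own libraries alone. Standard errors were derived from the F statistic as |log2 fold change|/√F. CPM uses the TMM-adjusted library size. Lengths and positions come from GENCODE vM21, which holds 97.5% of the symbols once. The 2 libraries of a group differed by more than counting noise (chi-square per degree of freedom 3.58 to 4.27, ribosomal-repeat models left out). That spread can be technical and does not show separate cultures. The fit treated them as 2 samples. The alternatives were RLE factors, DESeq2 1.42.0, no low-count filter, only the 2 groups compared, a replicate block, the ribosomal-repeat models or their 2 libraries left out, a minimum fold of 1.5, and each library left out. Named were the 9 members, up to 4 genes per list and comparison with the smallest p, and 3 genes closest to each of 3 members. The members and lists were chosen with earlier results of these data known.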

Additional observations from a re-analysis of the deposited data

How the results depend on the processing

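Of 378 values of the 9 genes under 14 alternatives in 3 comparisons, 324 kept their direction and side of the threshold, 45 lost a call, 7 gained one and 2 changed sign, neither with a call. These were for BMP2+DM against BMP2: leaving out 1 library gave Ltbp4 −0.076 (without BMP2+DM replicate 2) to 0.12, and Fbn2 −0.0028 (without BMP2+DM replicate 1) to 0.11. With PBS replicate 1 and BMP2 replicate 1 both left out, BMP2 against PBS called 171 genes higher and 403 lower, with 0 members higher; BMP2+DM against BMP2 called 137 and 176, with 1 member higher; and BMP2+DM against PBS called 533 and 855, with 0 members higher and 4 lower. Against a minimum fold of 1.5 the same comparisons called 56 and 235, 38 and 60, and 95 and 329 genes, and 0 and 2, 0 and 1, and 0 and 2 members (at an unadjusted edgeR p under 0.05, 0 higher and 2 lower in each). DESeq2 called 0 members higher for BMP2 against PBS (1 at an unadjusted p under 0.05, 1 called by edgeR), and with no low-count filter 2 were higher for BMP2+DM against PBS. Leaving out 1 library gave 475 to 1028 genes higher and 843 to 1442 lower for BMP2 against PBS (members 0 to 1 and 3 to 5), 314 to 528 and 356 to 553 for BMP2+DM against BMP2 (members 1 to 3 and 2 to 3), and 742 to 1298 and 1085 to 1630 for BMP2+DM against PBS (members 0 to 1 and 4 to 6). The lone sample of a group is then assumed to vary like the other groups. With the longest transcript as length, the LTBP to ligand ratios were 1.09, 1.17 and 0.753 with PBS, BMP2 and BMP2+DM, the Tgfb3 shares 49.3%, 37.6% and 42.1%, the Ltbp2 shares with PBS and BMP2 18.1% and 7.61%, and the Fbn2 shares 13.5%, 19.9% and 18.2%. The cause of these shifts was not tested beyond the fewer samples, the stricter threshold or the other lengths that define each alternative.

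The replicate numbers come from the labels, which do not say what they mark. Same-numbered libraries did not deviate together from their group means (correlation across genes 0.02, −0.02 and −0.04 for the 3 pairs of groups). Such correlations cannot show whether they shared a culture or a preparation, which was not tested. PBS replicate 1 and BMP2 replicate 1 both had high ribosomal-repeat reads (1.31% and 2.10%), and BMP2+DM replicate 1 did not (0.0753%). With the replicate block, 932 genes rose and 1329 fell for BMP2 against PBS, 601 and 625 for BMP2+DM against BMP2, and 1327 and 1633 for BMP2+DM against PBS, and no call of the 9 genes changed. Depth limits Tgfb1 and Ltbp2 most, with 269 and 109 counts in their lowest libraries.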
